A study of Mus musculus with 12 samples.

Results

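The growth hormone and prolactin signalling genes of mouse liver were followed across genotype and agonist treatment. The group comprises 10 genes, named by function and matched through the gene symbols of the array platform: the receptor genes Ghr and Prlr, the transcription factor genes Stat5a and Stat5b, the feedback inhibitor genes Socs2 and Cish, the repressor genes Bcl6 and Cux2, and the secreted-protein genes Igf1 and Igfals. Of these, 9 were read by at least 1 probe set carrying that symbol alone, out of 19935 genes with such a probe set. No value is given for Prlr, for which the annotation used here names no probe set. All 9 were bright enough to be tested, among 13987 genes tested.

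Growth hormone and prolactin bind related receptors that have no enzymatic activity and act through the associated kinase Jak2. The kinase phosphorylates the latent transcription factors Stat5a and Stat5b, which enter the nucleus and switch on target genes. Among these targets are Socs2 and Cish, whose products bind back to the receptor complex and dampen it, and Igf1 and Igfals, whose products circulate as the growth factor and as a subunit of its carrier complex. In rodents the pituitary secretes growth hormone in pulses in males and more continuously in females. Bcl6 and Cux2 are repressors that take part in the sex-biased gene expression of liver that follows from this pattern. Oestrogens are known in mammals to modify growth hormone action in liver.

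Livers came from ovariectomized mice aged 3 months and labelled C57BL/6, which were of the MOER line (membrane oestrogen receptor alpha only), the ERKO line (oestrogen receptor alpha knockout) or wild type. After 1 week of recovery the mice of each genotype were given 3 daily doses of 100 µg PPT, a synthetic ligand that activates oestrogen receptor alpha in preference to the beta form, or 0.1 mL of oil. Every mouse in the series was therefore without ovaries, and neither the construct and promoter of the MOER line nor the allele of the ERKO line is named in the labels. Each array (Affymetrix Mouse Gene 1.0 ST) was hybridised with RNA pooled from 3 animals, and each of the 6 groups had 2 arrays, 12 in all. The labels say that the study was run a second time but do not tie the arrays to the runs, so p-values measure the spread between these arrays, which may be technical.

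Esr1, the receptor gene itself, checks the labels of both lines against wild type. Its values under oil do not tell MOER from ERKO. Its intensity was 127 ± 0.926 in MOER oil livers and 122 ± 5.62 in ERKO oil livers, against 356 ± 12.6 in wild type oil livers (mean ± SD, n = 2 each). With PPT it was 117 and 131 in MOER, 145 and 162 in ERKO and 309 and 325 in wild type livers. Between PPT and oil it was called in ERKO alone, where it was higher with PPT (limma log2 difference 0.30 ± 0.093, adjusted p = 0.0496). Under oil the log2 difference from wild type was -1.38 ± 0.093 in MOER (adjusted p = 1.06e-05) and -1.43 ± 0.093 in ERKO (adjusted p = 1.43e-05), while MOER minus ERKO was 0.05 ± 0.093 on the log2 scale (adjusted p = 0.816). Median intensity was 77.5 to 85.26 per array. Replicate arrays had a Pearson r of 0.994 to 0.996 across probe sets, except the ERKO oil pair at 0.983, with 162 tested probe sets over 2-fold apart, against 2 to 21 in the other 5 pairs. All 10 hepatocyte markers were above the 40th percentile of the array in every group, and with PPT 0 of them were called in MOER, 4 fell in ERKO, and 1 rose and 4 fell in wild type. Markers of other cells also differed between groups. The summed intensity of 9 measured pancreatic acinar markers was 36250 to 46400 in MOER oil livers and 403 to 649 in the other 5 groups, where 4 to 6 of the 9 lay under the 40th percentile on both arrays. The sum of 8 skeletal muscle markers was 10290 to 10370 in ERKO PPT livers and 415 to 575 in the other 5 groups. The sum of 8 neutrophil markers was 858 to 859 in MOER PPT against 867 to 986 in MOER oil livers, 1184 to 1250 in ERKO PPT against 1577 to 2102 in ERKO oil livers, and 546 to 561 in wild type PPT against 254 to 292 in wild type oil livers. Of the 7 tested neutrophil markers, 4 were called higher in MOER than in wild type under oil and 5 in ERKO. The sum of 7 measured adipocyte markers was 594 to 614 in MOER PPT against 569 to 611 in MOER oil livers. It was 1395 to 1431 in ERKO PPT against 398 to 485 in ERKO oil livers, and 1171 to 1209 in wild type PPT against 625 in wild type oil livers. Of the 5 tested adipocyte markers, 3 were called higher with PPT in ERKO and 1 in wild type. Their median log2 difference was 0.53 in ERKO and -0.02 in wild type. No marker of these lists was at 0 on both arrays of a group. Under oil all 9 acinar markers were called higher in MOER than in wild type (median log2 difference 4.73) and than in ERKO (4.63). Acinar transcripts thus move with the MOER response to PPT and with the MOER comparisons under oil. Muscle, adipocyte and neutrophil transcripts move with the ERKO response. Neutrophil transcripts and the adipocyte sum move with the wild type response, and neutrophil transcripts with the genotypes under oil. The part of all these transcripts in the results below was not tested.

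For 6 of the 9 genes the response to PPT differed between at least 1 pair of genotypes. The share of all tested genes that did so was not computed. Single pairs called 11.6% of them for MOER minus ERKO, 23.9% for wild type minus MOER and 23.7% for wild type minus ERKO. Bcl6 rose in all 3 genotypes. Socs2 fell in MOER livers, did not pass the test in ERKO livers and rose in wild type livers, Cish fell in MOER and ERKO livers, and Stat5a rose in wild type livers. A gene was called at a Benjamini-Hochberg adjusted p under 0.05 in limma, on log2(intensity + 16). In MOER livers 3 of the 9 genes were called, 1 up and 2 down, where 4.92% of all tested genes were called, 2.52% up and 2.40% down. In ERKO livers 3 were called, 1 up and 2 down, against 16.9% of all tested genes, 7.44% up and 9.48% down. In wild type livers 5 were called, 3 up and 2 down, against 33.1% of all tested genes, 15.2% up and 17.9% down. The median log2 difference of the 9 genes was -0.31 in MOER, -0.07 in ERKO and 0.05 in wild type, beside 0.00 for all tested genes in each genotype. Without either ERKO oil array the count in MOER livers became 6, and without ERKO PPT replicate 2 the count in ERKO livers became 1.

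**Figure D1:**
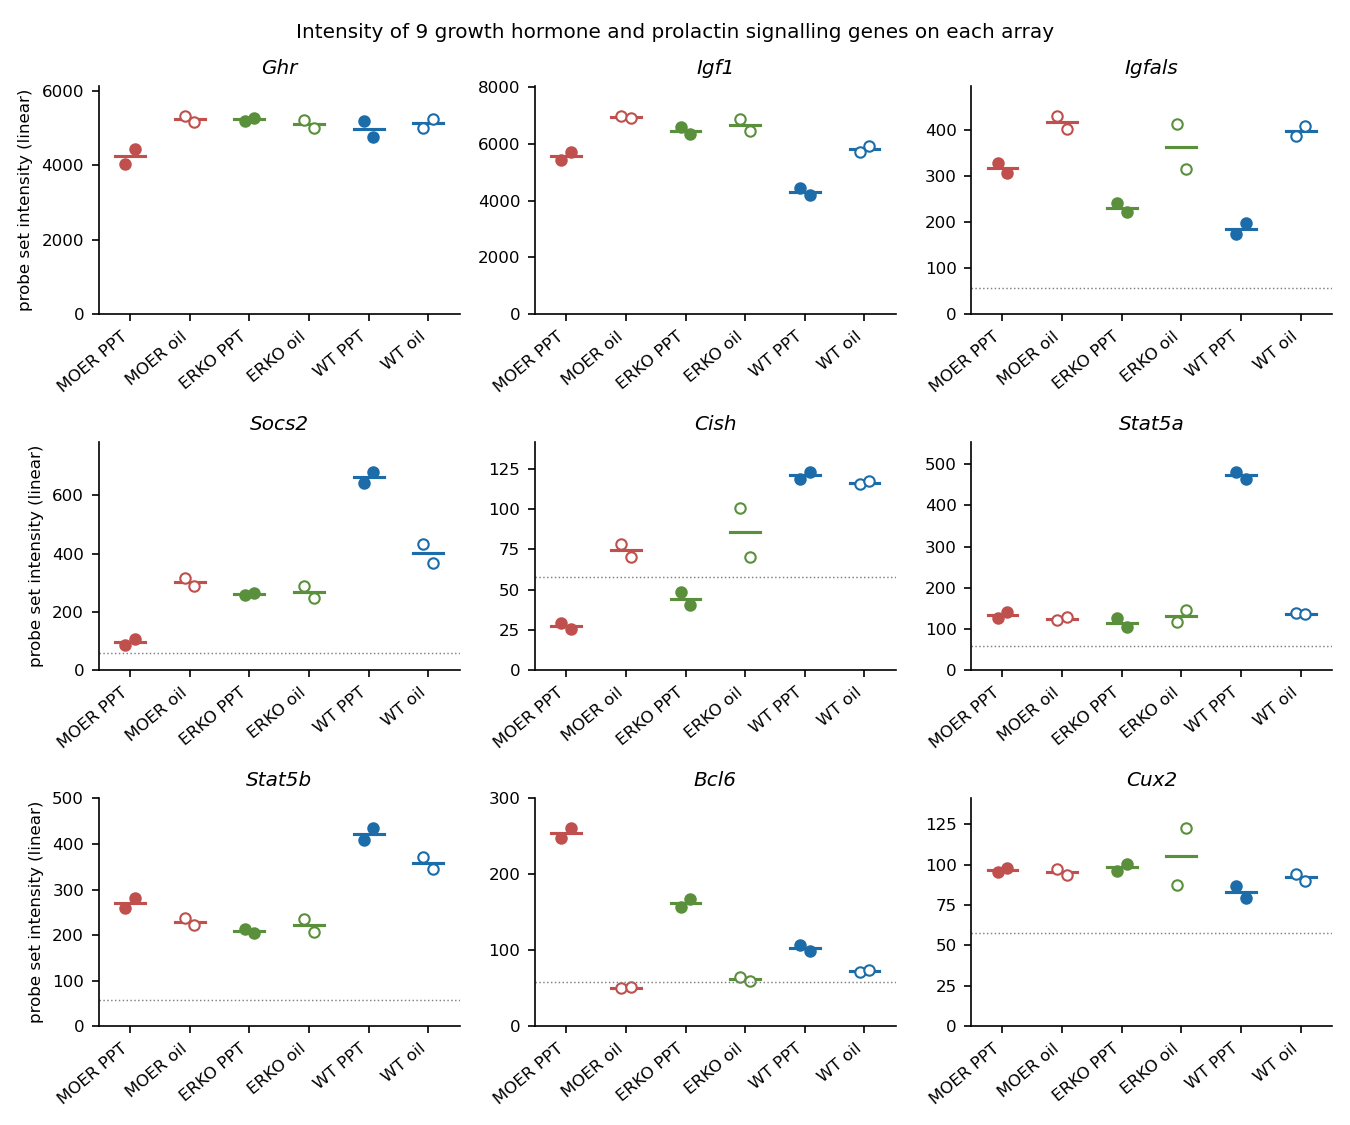
Linear probe set intensity of the 9 measured genes on each of the 12 arrays, with filled points for PPT, open points for oil and a bar for the mean of 2 arrays. The dotted line is the mean 40th percentile of the arrays, drawn in the panels of dimmer genes. Stat5a stands high in WT PPT alone, Bcl6 is highest in MOER PPT, and Socs2 and Cish are lowest there.

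**Figure D2:**
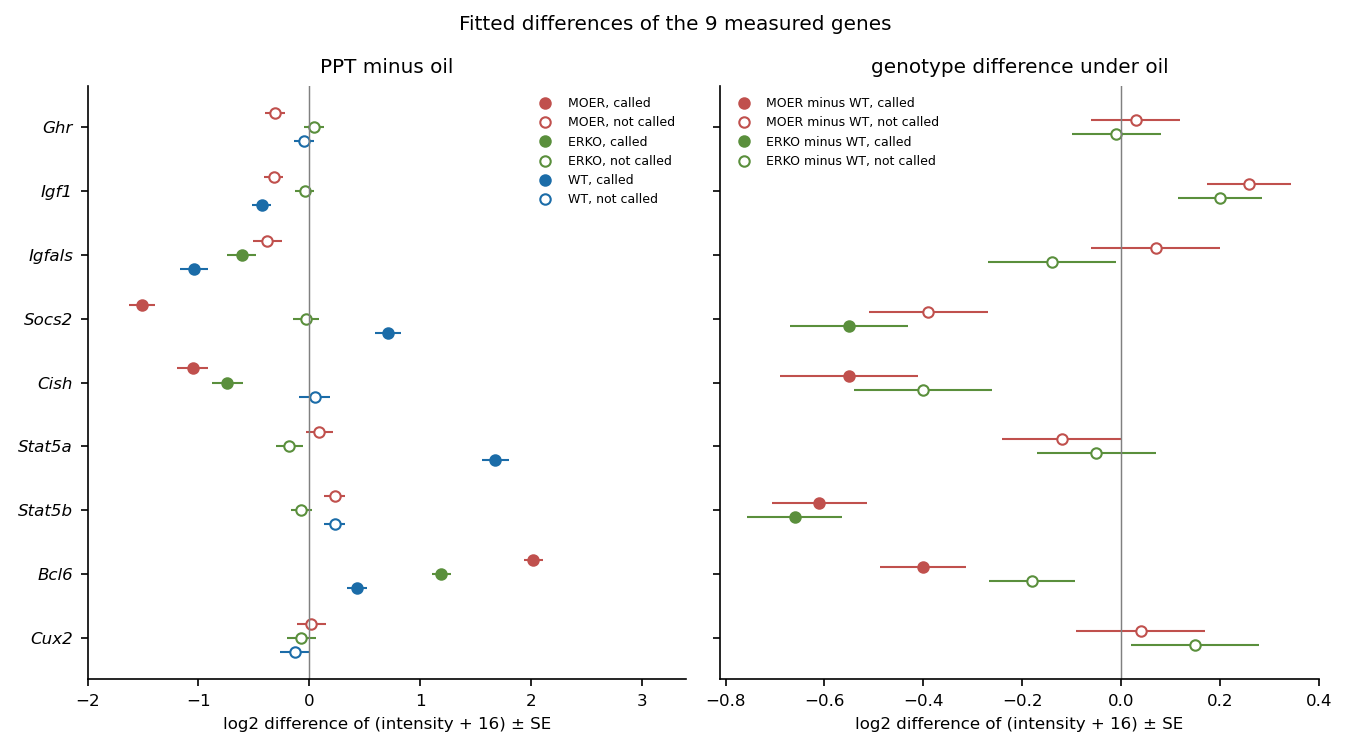
Fitted log2 differences with standard errors for the 9 genes, PPT minus oil in each genotype on the left and MOER or ERKO minus wild type under oil on the right. Filled points passed an adjusted p of 0.05. Bcl6 lies right of 0 in all 3 genotypes, while Socs2 lies left of 0 in MOER and right of it in wild type.

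Ghr, the growth hormone receptor gene, was brightly and evenly hybridised. Its intensity was 4045 and 4436 in MOER PPT livers and 5334 and 5157 in MOER oil livers. ERKO livers gave 5191 and 5282 with PPT and 5214 and 4992 with oil, and wild type livers gave 5187 and 4764 with PPT and 5017 and 5252 with oil. The 5 groups other than MOER PPT overlapped their neighbours in the order of levels, and the MOER PPT arrays lay below all of them. The log2 difference in MOER was -0.31 ± 0.09 and did not pass the test (adjusted p = 0.0953), but was called without either ERKO oil array (adjusted p = 0.0412 in each case), with an added constant of 64 (0.0439), a filter at the 60th percentile (0.0484), quantile normalization (0.0226) or a trended variance (0.0159). In ERKO it was 0.04 ± 0.09 (adjusted p = 0.818) and in wild type -0.05 ± 0.09 (adjusted p = 0.74). No difference between responses was called for Ghr, the MOER minus ERKO value being -0.34 ± 0.13 (adjusted p = 0.111).

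Stat5a and Stat5b, neighbouring genes for closely related transcription factors, had different patterns. Stat5a gave 128 and 141 in MOER PPT livers and 121 and 129 in MOER oil livers. In ERKO it gave 127 and 103 with PPT and 118 and 147 with oil. In wild type it gave 482 and 465 with PPT and 139 and 135 with oil. The wild type PPT arrays lay far above all others, and the remaining 5 groups overlapped from neighbour to neighbour. The wild type difference was 1.68 ± 0.12 on the log2 scale (adjusted p = 1.90e-06), a 3.45-fold rise, against 0.09 ± 0.12 in MOER (adjusted p = 0.836) and -0.18 ± 0.12 in ERKO (adjusted p = 0.349). The responses themselves differed, by 1.59 ± 0.17 for wild type minus MOER (adjusted p = 6.78e-05) and 1.85 ± 0.17 for wild type minus ERKO (adjusted p = 2.55e-05). For MOER minus ERKO the value was 0.26 ± 0.17 (adjusted p = 0.362).

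Stat5b, the form that predominates in liver growth hormone signalling, was set apart by genotype. It gave 260 and 281 in MOER PPT livers, 237 and 222 in MOER oil livers, 214 and 204 in ERKO PPT livers, 235 and 207 in ERKO oil livers, 409 and 436 in wild type PPT livers and 371 and 345 in wild type oil livers. All 4 wild type arrays lay above all 8 arrays of the MOER and ERKO lines. Under oil the Stat5b log2 difference from wild type was -0.61 ± 0.096 in MOER (adjusted p = 0.00552) and -0.66 ± 0.096 in ERKO (adjusted p = 0.00365). The MOER call was lost without wild type oil replicate 1 (-0.56, adjusted p = 0.0743) or MOER oil replicate 2 (-0.56, adjusted p = 0.0738), and the ERKO call without wild type oil replicate 1 (-0.61, adjusted p = 0.0567) or with only the compared groups in the fit (adjusted p = 0.186). PPT responses of 0.23 ± 0.096 in MOER (adjusted p = 0.295), -0.07 ± 0.096 in ERKO (adjusted p = 0.65) and 0.23 ± 0.096 in wild type (adjusted p = 0.0994) did not pass. The wild type response was called without either ERKO oil array (adjusted p = 0.0415). How far each probe set also reads the other gene's transcript was not tested.

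Socs2, which encodes a suppressor of cytokine signalling that restrains growth hormone receptor signalling, responded to PPT in opposite directions. By the brighter of its 2 probe sets it gave 85.7 and 107 in MOER PPT livers and 315 and 288 in MOER oil livers. ERKO livers gave 259 and 265 with PPT and 288 and 249 with oil, and wild type livers gave 643 and 681 with PPT and 433 and 368 with oil. The groups did not overlap in MOER or in wild type and did overlap in ERKO. In MOER Socs2 fell by 1.51 ± 0.12 in log2 units (adjusted p = 3.03e-05), in wild type it rose by 0.71 ± 0.12 (adjusted p = 0.00113), with -0.03 ± 0.12 in ERKO (adjusted p = 0.891). The other probe set gave -1.17 ± 0.098 in MOER (adjusted p = 3.88e-05), 0.06 ± 0.098 in ERKO (adjusted p = 0.727) and 0.65 ± 0.098 in wild type (adjusted p = 4.69e-04). Every pair of responses differed, by -1.48 ± 0.17 for MOER minus ERKO (adjusted p = 3.63e-04), 2.21 ± 0.17 for wild type minus MOER (adjusted p = 8.34e-06) and 0.74 ± 0.17 for wild type minus ERKO (adjusted p = 0.0109). The last of these was lost without wild type oil replicate 2 (0.63, adjusted p = 0.0532).

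Under oil the Socs2 level was lower in ERKO than in wild type livers (log2 difference -0.55 ± 0.12, adjusted p = 0.031), and the second probe set gave the same difference, -0.55 ± 0.098 (adjusted p = 0.0114). The call on the brighter probe set was lost in 7 of the 12 fits that leave out 1 array, namely without either array of wild type oil, wild type PPT or ERKO PPT and without ERKO oil replicate 2, over a range of -0.66 to -0.44 (adjusted p 0.00877 to 0.227 over the 12), and also without a filter (adjusted p = 0.0602) or with only the compared groups (adjusted p = 0.36). In MOER the difference of -0.39 ± 0.12 missed the threshold (adjusted p = 0.089) and passed it without either ERKO oil array (adjusted p = 0.0419).

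Cish, the founding member of the same family of inhibitors and a direct target of Stat5, was dim in MOER PPT and ERKO PPT livers. It gave 29.4 and 25.8 in MOER PPT livers and 78.3 and 70.4 in MOER oil livers. ERKO livers gave 48.4 and 40.2 with PPT and 100.7 and 70.4 with oil. Wild type livers gave 119 and 123 with PPT and 116 and 117 with oil. Both arrays of MOER PPT and of ERKO PPT lay under the 40th percentile of their array (53.58 to 60.98 over the arrays), so there only a bound is measured: Cish fell at least 1.23-fold in MOER and at least 1.43-fold in ERKO. The fitted log2 differences were -1.05 ± 0.14 in MOER (adjusted p = 8.99e-04) and -0.74 ± 0.14 in ERKO (adjusted p = 0.00465), and their size depends on the added constant, reaching from -1.40 with 1 to -0.59 with 64 in MOER. The ERKO call was lost without ERKO PPT replicate 2 (-0.64, adjusted p = 0.0533) or with only the compared groups (adjusted p = 0.076).

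In wild type livers Cish showed 0.05 ± 0.14 (adjusted p = 0.823), and the response there differed from MOER by 1.10 ± 0.19 (wild type minus MOER, adjusted p = 0.00184) and from ERKO by 0.79 ± 0.19 (wild type minus ERKO, adjusted p = 0.0134). The ERKO difference was lost without wild type PPT replicate 2 (0.76, adjusted p = 0.0505) or ERKO PPT replicate 2 (0.69, adjusted p = 0.0588). The MOER response differed from that of ERKO by -0.31 ± 0.19 (adjusted p = 0.341), and -0.53 without ERKO oil replicate 1 (adjusted p = 0.0243). Under oil Cish was lower in MOER than in wild type, by -0.55 ± 0.14 (adjusted p = 0.0399). This call was lost in 10 of the 12 fits that leave out 1 array, all but those without an ERKO oil array, with adjusted p between 0.00516 and 0.246 over the 12, and also with a constant of 1 (0.0531) or without a filter (0.0714). In ERKO the difference under oil was -0.40 ± 0.14 (adjusted p = 0.114), and -0.62 without ERKO oil replicate 1 (adjusted p = 0.00461).

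Bcl6, a zinc finger repressor whose binding sequence resembles that of Stat5, rose with PPT in every genotype. It gave 248 and 261 in MOER PPT livers and 50.4 and 51.0 in MOER oil livers. ERKO livers gave 156 and 167 with PPT and 64.7 and 59.1 with oil, and wild type livers gave 106 and 99.3 with PPT and 70.9 and 73.6 with oil. None of the 6 groups overlapped its neighbour in the order of levels, and the 3 PPT groups lay above the 3 oil groups. The MOER oil arrays were under their 40th percentile, so the rise in MOER was at least 4.24-fold, beside 2.62-fold in ERKO and 1.42-fold in wild type. The fitted log2 differences were 2.02 ± 0.087 in MOER (adjusted p = 1.97e-07), 1.19 ± 0.087 in ERKO (adjusted p = 8.39e-06) and 0.43 ± 0.087 in wild type (adjusted p = 0.00319). All 3 calls held in each fit that left out 1 array. Over 10 alternative settings the values ran from 1.47 to 2.30 in MOER, 0.84 to 1.37 in ERKO and 0.29 to 0.50 in wild type.

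The size of the Bcl6 response differed between every pair of genotypes. It was larger in MOER than in ERKO by 0.83 ± 0.12 (adjusted p = 0.00188), and wild type minus MOER was -1.59 ± 0.12 (adjusted p = 8.11e-06) and wild type minus ERKO -0.76 ± 0.12 (adjusted p = 0.00126). A response was thus present in the knockout line, where muscle marker transcripts were also high with PPT but not with oil. Under oil Bcl6 was lower in MOER than in wild type by -0.40 ± 0.087 (adjusted p = 0.0237), a measured difference of at least 1.20-fold, and this call was lost without any of the arrays of wild type oil or MOER oil (-0.43 to -0.38, adjusted p 0.121 to 0.164), with a constant of 64 (0.0607), without a filter (0.0575) and with a trended variance (0.0519). ERKO minus wild type was -0.18 ± 0.087 (adjusted p = 0.241). Bcl6 is also expressed by lymphocytes, and the summed intensity of 9 lymphocyte markers was 1209 to 1300 in MOER PPT against 1025 to 1111 in MOER oil livers, 1012 to 1047 in ERKO PPT against 1150 to 1223 in ERKO oil livers, and 1194 to 1195 in wild type PPT against 938 to 992 in wild type oil livers. In whole tissue a change in the number of cells of a type and a change in RNA per cell cannot be told apart.

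**Figure D3:**
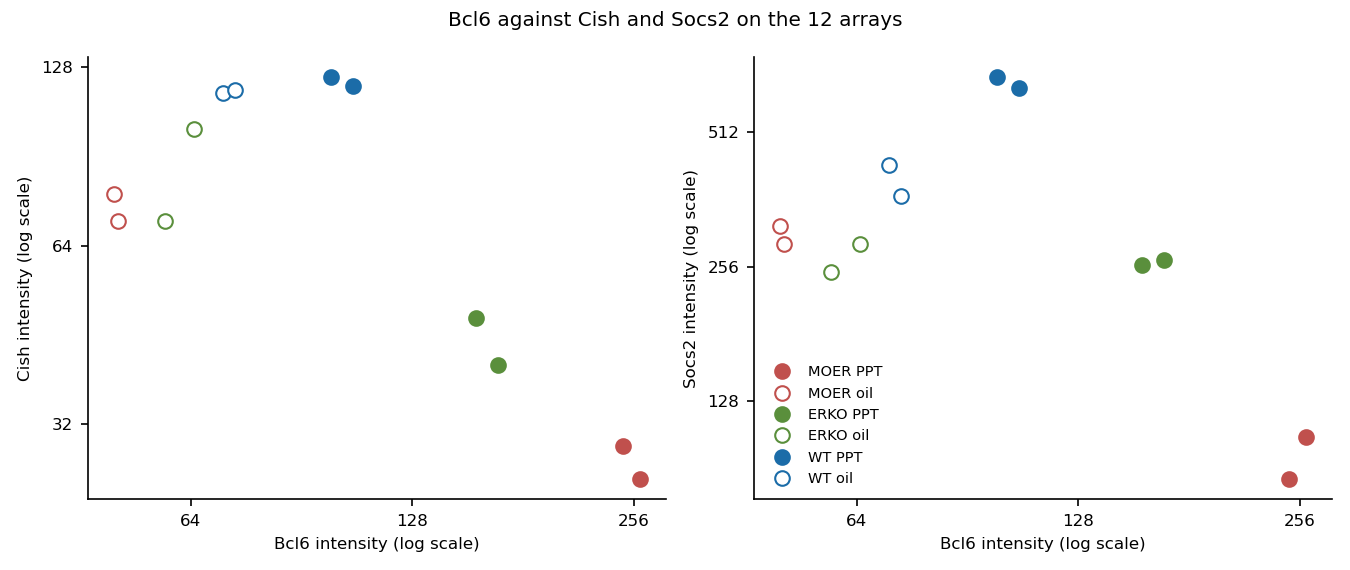
Intensity of Bcl6 (horizontal) against Cish (left) and Socs2 (right) on each of the 12 arrays, both axes logarithmic, filled for PPT and open for oil. The 2 MOER PPT arrays lie lowest for Cish and Socs2 and highest for Bcl6, while the WT PPT arrays are highest for Cish and Socs2.

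The Stat5 recognition palindrome TTCNNNGAA, which reads the same on both strands, was looked up in the RefSeq promoter windows of assembly GRCm38.p6, each covering 250 bases before to 50 bases after an annotated start. Of 32851 windows, 8.30% held the palindrome and 0.457% held it at least 2 times. Windows were at hand for 9 of the 10 genes (all but Socs2), 18 in all, and 6 of them held it, in Prlr, Igfals, Cish and Bcl6. The stretches of Cish and Bcl6, the feedback gene and the repressor that moved in opposite directions in MOER and ERKO livers, and of Igfals are shown 5′ to 3′ in the gene's direction, with each palindrome in capitals. The Cish stretch is chr9:107296559-107296688 on the plus strand, where the palindromes begin at the annotated start and 11 bases after it. Those of Bcl6 are chr16:23981343-23981463 and chr16:23988932-23989002 on the minus strand. The stretch at 23981343 lies before the downstream of the gene's annotated starts and has palindromes beginning 168, 122 and 88 bases before it. The stretch at 23988932 lies before the upstream start and has a palindrome beginning 118 bases before it. Igfals has 3 annotated starts, and the stretch shown, chr17:24878141-24878211 on the plus strand, has a palindrome beginning 58 bases before the middle one. Another palindrome, not shown, begins 236 bases before the most upstream start of Igfals, and the window of the remaining start holds none.
Cish: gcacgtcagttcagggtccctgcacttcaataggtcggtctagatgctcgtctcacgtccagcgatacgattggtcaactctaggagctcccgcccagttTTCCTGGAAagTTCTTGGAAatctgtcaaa
Bcl6, downstream start: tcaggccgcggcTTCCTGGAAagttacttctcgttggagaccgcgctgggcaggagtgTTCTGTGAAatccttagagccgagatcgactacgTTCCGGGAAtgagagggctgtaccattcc
Bcl6, upstream start: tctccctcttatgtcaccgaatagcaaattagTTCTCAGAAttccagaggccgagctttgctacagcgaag
Igfals: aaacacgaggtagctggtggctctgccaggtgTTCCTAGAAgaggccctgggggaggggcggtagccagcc
A match describes these letters and not occupancy, which was not measured.

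Cux2, a repressor that is female-biased in mouse liver, stayed within a narrow range. Its intensity was 95.6 and 97.8 in MOER PPT livers, 97.4 and 93.3 in MOER oil livers, 95.8 and 100.7 in ERKO PPT livers, 87.4 and 123 in ERKO oil livers, 86.5 and 79.2 in wild type PPT livers and 94.2 and 90.0 in wild type oil livers. Only wild type PPT lay below every other group, and all other neighbours overlapped. PPT responses of 0.02 ± 0.13 in MOER (adjusted p = 0.979), -0.07 ± 0.13 in ERKO (adjusted p = 0.754) and -0.13 ± 0.13 in wild type (adjusted p = 0.479) did not pass. Its value of 123 in ERKO oil replicate 2 and 87.4 in replicate 1 moved the ERKO calls: without replicate 1 the ERKO response was -0.28 (adjusted p = 0.0384), ERKO minus wild type under oil was 0.36 (adjusted p = 0.0144) and MOER minus ERKO under oil was -0.32 (adjusted p = 0.0467).

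Igf1, the gene of insulin-like growth factor 1, was lower after PPT in wild type livers and did not pass the test in the other genotypes. It gave 5447 and 5699 in MOER PPT livers and 6989 and 6903 in MOER oil livers. ERKO livers gave 6587 and 6337 with PPT and 6863 and 6443 with oil, and wild type livers gave 4433 and 4180 with PPT and 5694 and 5917 with oil. The PPT and oil arrays did not overlap in MOER or wild type and did in ERKO. The wild type difference was -0.43 ± 0.085 (adjusted p = 0.00275), the MOER difference -0.32 ± 0.085 (adjusted p = 0.0671) and the ERKO difference -0.04 ± 0.085 (adjusted p = 0.785). The MOER value was called without either ERKO oil array (adjusted p = 0.0215), and with a constant of 64 (0.0272), the 60th percentile filter (0.0317), quantile normalization (0.046) or a trended variance (0.00795). Wild type minus ERKO was -0.39 ± 0.12 (adjusted p = 0.0405), a call lost in 10 of the 12 fits that leave out 1 array, all but those without an ERKO oil array (adjusted p 0.0137 to 0.154 over the 12). It was also lost without a filter on low values (adjusted p = 0.0873), with median centring (0.0693), with quantile normalization (0.0717) and with only the compared groups in the fit (0.0867). Wild type minus MOER was -0.11 ± 0.12 (adjusted p = 0.601) and MOER minus ERKO -0.28 ± 0.12 (adjusted p = 0.174). Under oil the values against wild type were 0.26 ± 0.085 in MOER (adjusted p = 0.102, and 0.0342 without either ERKO oil array) and 0.20 ± 0.085 in ERKO (adjusted p = 0.199). Hepatocyte markers were also lower after PPT in wild type, where their summed intensity was 89140 to 95270 in PPT livers against 106900 to 108500 in oil livers, with a median log2 difference of -0.20. Their part in the fall of Igf1 and of Igfals was not tested.

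Igfals, which encodes the acid-labile subunit that holds the growth factor in its circulating complex, was lower after PPT in ERKO and wild type livers. It gave 328 and 307 in MOER PPT livers and 431 and 403 in MOER oil livers. ERKO livers gave 241 and 222 with PPT and 413 and 315 with oil, and wild type livers gave 174 and 198 with PPT and 386 and 409 with oil. PPT and oil arrays did not overlap in any genotype. In wild type Igfals fell by 1.04 ± 0.13 in log2 units (adjusted p = 9.51e-05) and in ERKO it fell by 0.61 ± 0.13 (adjusted p = 0.00882), with -0.38 ± 0.13 in MOER (adjusted p = 0.155). The ERKO call was lost without ERKO PPT replicate 2 (-0.55, adjusted p = 0.0787) or with only the compared groups (adjusted p = 0.114), and the MOER value was called without either ERKO oil array (adjusted p = 0.0282). Wild type minus MOER was -0.66 ± 0.18 (adjusted p = 0.022), lost in 5 of the 12 fits that leave out 1 array, namely without either wild type oil array, wild type PPT replicate 1, MOER oil replicate 2 or MOER PPT replicate 1 (-0.70 to -0.57, adjusted p 0.0501 to 0.0942). Wild type minus ERKO was -0.43 ± 0.18 (adjusted p = 0.112), and -0.62 without ERKO oil replicate 1 (adjusted p = 0.00781). The MOER minus ERKO difference between responses was 0.23 ± 0.18 (adjusted p = 0.457). ERKO oil replicate 1 also moved the comparisons under oil: ERKO minus wild type was -0.14 ± 0.13 (adjusted p = 0.537) and without it -0.32 (adjusted p = 0.0448), and MOER minus ERKO was 0.20 ± 0.13 (adjusted p = 0.459) and without it 0.39 (adjusted p = 0.0485).

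Between genotypes under oil, 3 of the 9 genes were called for MOER minus wild type, all 3 lower (Cish, Stat5b and Bcl6), where 5.78% of tested genes were called and 3.64% were called lower. For ERKO minus wild type 2 were called, both lower (Socs2 and Stat5b), against 5.23% of tested genes and 2.89% called lower. Both counts and their backgrounds depend on single arrays. For MOER minus wild type the count became 0 without wild type oil replicate 1 or MOER oil replicate 2, 1 without wild type oil replicate 2 or MOER oil replicate 1, and 5 without either ERKO oil array, and the 809 genes called became 173 to 2570. For ERKO minus wild type it became 0 without wild type oil replicate 1, 1 without wild type oil replicate 2, ERKO oil replicate 2 or any array of wild type PPT or ERKO PPT, and 5 without ERKO oil replicate 1, and the 732 genes called became 162 to 4776. MOER and ERKO share the wild type oil arrays in these comparisons. Of the 9 genes, 0 were called between MOER and ERKO under oil, where 2.16% of tested genes were called. By the probe set that represents each gene, 1 had an unadjusted p under 0.05 there in limma, Bcl6 at -0.22 ± 0.087, where the dim MOER oil arrays give a bound of only 1.03-fold. The second Socs2 probe set was also under 0.05 unadjusted, at 0.27 ± 0.098 (adjusted p = 0.207). The Cyber-T style test called 0, and without ERKO oil replicate 1 the limma count was 2. Among the differences between responses, 2 genes were called for MOER minus ERKO (Socs2 and Bcl6), against 11.6% of tested genes. For wild type minus MOER 5 were called (Igfals, Socs2, Cish, Stat5a and Bcl6), against 23.9%, and for wild type minus ERKO 5 (Igf1, Socs2, Cish, Stat5a and Bcl6), against 23.7%. The last count became 3 without wild type oil replicate 2, wild type PPT replicate 2 or ERKO PPT replicate 2.

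Genes that act beside the receptors were taken as lists. Of all tested genes, 2.52% were called up and 2.40% down in MOER. The shares were 7.44% and 9.48% in ERKO and 15.2% and 17.9% in wild type. They are the background to each list below. Of 15 tested genes of receptor-proximal signalling, 2 rose and 0 fell in MOER, 1 rose and 2 fell in ERKO, and 2 rose and 3 fell in wild type, with medians of 0.18, -0.12 and -0.02 on the log2 scale. These counts moved when 1 array was left out: 1 to 3 rose in MOER, 0 to 2 rose and 1 to 4 fell in ERKO, and 2 to 4 rose and 1 to 3 fell in wild type. The 2 and 4 in ERKO came without ERKO oil replicate 2, the 4 in wild type without either ERKO oil array, and the 1 in wild type without wild type oil replicate 1 or wild type PPT replicate 1. The ERKO counts were 0 and 1 without any other array, and the MOER count was 1 without any array of MOER or wild type. Stat3, which serves the interleukin 6 family of cytokines, rose to 662 ± 34.6 in MOER PPT livers, against 357 ± 15.4 in MOER oil livers (0.86 ± 0.094, adjusted p = 2.87e-04), and fell in ERKO (-0.32 ± 0.094, adjusted p = 0.0426). Jak1, a cytokine receptor kinase, rose in MOER by 0.41 ± 0.088 (adjusted p = 0.024) and changed in wild type by -0.50 ± 0.088 (adjusted p = 0.00134). Jak2, the kinase of the growth hormone and prolactin receptors, fell in wild type by 0.38 ± 0.10 (adjusted p = 0.0175). It was not called in MOER (0.23 ± 0.10, adjusted p = 0.343) or ERKO (-0.12 ± 0.10, adjusted p = 0.468). Its wild type minus MOER response was -0.61 ± 0.15 (adjusted p = 0.013). Pik3r1, the regulatory subunit of phosphoinositide 3-kinase, reached 1564 ± 50.7 in wild type PPT livers, against 557 ± 13.0 in wild type oil livers (1.46 ± 0.092, adjusted p = 7.98e-07), and in ERKO it fell by 0.56 ± 0.092 (adjusted p = 0.00257).

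Of 16 tested negative regulators, 2 rose and 1 fell in MOER, 1 rose and 1 fell in ERKO, and 1 rose and 2 fell in wild type, with medians of 0.07, -0.06 and 0.06. Without 1 array, 1 to 3 rose and 0 to 1 fell in MOER, 0 to 1 rose and 0 to 1 fell in ERKO, and 0 to 3 rose and 1 to 2 fell in wild type. The wild type rise was 0 without any of the 4 wild type arrays and 3 without either ERKO oil array. Socs3, the family member induced by interleukin 6, was at 263 ± 0.247 in MOER PPT livers, against 151 ± 1.29 in MOER oil livers (0.74 ± 0.093, adjusted p = 7.44e-04), and rose in ERKO by 0.37 ± 0.093 (adjusted p = 0.0206). Socs3 and Socs2 thus moved apart in MOER. The phosphatase gene Dusp1 changed by -0.58 ± 0.097 in MOER (adjusted p = 0.00525) and -1.07 ± 0.097 in wild type (adjusted p = 1.13e-05). Ptpn6, a phosphatase that acts on cytokine receptors, changed by -0.36 ± 0.082 in ERKO (adjusted p = 0.0133), and Btrc, part of a ubiquitin ligase that takes part in growth hormone receptor uptake, by 0.46 ± 0.098 in MOER (adjusted p = 0.0217) and -0.38 ± 0.098 in wild type (adjusted p = 0.0122). Macrophage markers also changed with PPT. Their summed intensity over 10 markers was 14020 to 14140 in MOER PPT against 11250 to 11400 in MOER oil livers. It was 9129 to 9291 in ERKO PPT against 10090 to 11450 in ERKO oil livers. In wild type it was 12680 to 12800 in PPT against 9889 to 10210 in oil livers. Of the 10 markers, 4 were called higher and 1 lower with PPT in MOER, 0 higher and 5 lower in ERKO. In wild type 5 were called higher and 1 lower. The part of the macrophage markers in the result was not tested.

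Of 12 tested carriers, receptors and proteases of the insulin-like growth factors, 2 rose and 0 fell in MOER, 3 rose and 3 fell in ERKO, and 2 rose and 6 fell in wild type, with medians of 0.05, -0.01 and -0.27. The number that fell in ERKO was 0 without either ERKO PPT array and 5 without ERKO oil replicate 2, and the number that rose in MOER was 1 without any of the 4 MOER arrays. Igfbp1, a binding protein that insulin represses, rose in all 3 genotypes, by 0.87 ± 0.13 in MOER (adjusted p = 0.00275), 1.06 ± 0.13 in ERKO (adjusted p = 4.78e-04) and 2.44 ± 0.13 in wild type (adjusted p = 2.66e-07). Its intensity was 1177 ± 24.5 in wild type PPT livers and 205 ± 20.7 in wild type oil livers. Igfbp2, another carrier, was at 471 ± 13.7 in wild type PPT livers, against 1539 ± 3.49 in wild type oil livers (-1.67 ± 0.10, adjusted p = 7.59e-07). It changed by -0.42 ± 0.10 in ERKO (adjusted p = 0.0216) and was not called in MOER. Insr, the insulin receptor gene, rose in MOER by 0.49 ± 0.089 (adjusted p = 0.00936) and was lower with PPT in ERKO (-0.31 ± 0.089, adjusted p = 0.0356) and wild type (-0.51 ± 0.089, adjusted p = 0.00124). Igfbp6 rose in ERKO by 1.12 ± 0.095 (adjusted p = 2.79e-05), to 217 ± 14.0 in ERKO PPT livers against 90.9 ± 4.33 in ERKO oil livers. Igfbp6 is also made by connective tissue, and the muscle markers were high in the same arrays. Its link to them was not tested.

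Liver genes that follow the growth hormone pattern gave different counts in the 3 genotypes. Of 17 tested genes of the male, pulsatile pattern, 2 rose and 6 fell in MOER, 11 rose and 2 fell in ERKO, and 3 rose and 7 fell in wild type, with medians of -0.23, 0.58 and -0.31. Of 16 tested genes of the female, continuous pattern, 2 rose and 10 fell in MOER, 0 rose and 13 fell in ERKO, and 5 rose and 10 fell in wild type, with medians of -0.62, -0.97 and -0.90. The female-pattern count of 10 in MOER was 6 without MOER oil replicate 1 or MOER PPT replicate 1, and the male-pattern count of 2 in MOER was 1 without either MOER oil array or MOER PPT replicate 2. Slco1a1, an organic anion transporter, was at 65.9 ± 17.5 in MOER PPT against 383 ± 56.7 in MOER oil livers, at 3274 ± 38.3 in ERKO PPT against 316 ± 26.2 in ERKO oil livers, and at 445 ± 16.1 in wild type PPT against 286 ± 23.8 in wild type oil livers. Elovl3, a fatty acid elongase gene, was at 1643 ± 65.8 in ERKO PPT against 163 ± 60.4 in ERKO oil livers. It fell at least 2.17-fold in wild type (0.615 ± 0.615 in wild type PPT against 122 ± 21.3 in wild type oil livers, adjusted p = 8.42e-07). In MOER it fell at least 1.68-fold (adjusted p = 6.16e-04). Cyp4a12b is a fatty acid hydroxylase gene with near-identical relatives that its probes may also read. It was at 4137 ± 119 in ERKO PPT livers and 410 ± 41.0 in ERKO oil livers (adjusted p = 2.51e-08). In MOER it changed by -0.87 ± 0.12 (adjusted p = 0.00152), and both wild type groups were dim. Keg1 changed by -0.92 ± 0.11 in MOER (adjusted p = 4.61e-04), 0.47 ± 0.11 in ERKO (adjusted p = 0.0146) and -1.34 ± 0.11 in wild type (adjusted p = 4.77e-06). Cyp7b1, an oxysterol hydroxylase gene, rose in wild type by 3.19 ± 0.098 (adjusted p = 5.13e-09) and in ERKO by 0.51 ± 0.098 (adjusted p = 0.00634). It was not called in MOER.

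Among the genes of the continuous pattern, A1bg, a plasma glycoprotein gene, was at 57.5 ± 8.87 in ERKO PPT against 1882 ± 148 in ERKO oil livers, at 132 ± 23.1 in MOER PPT against 827 ± 35.1 in MOER oil livers, and at 2737 ± 35.8 in wild type PPT against 1042 ± 22.1 in wild type oil livers. Cyp2b13, a cytochrome P450 gene of a family with close copies, changed in ERKO by -3.16 ± 0.093 (adjusted p = 3.92e-09). It changed in wild type by -1.63 ± 0.093 (adjusted p = 3.98e-07) and was not called in MOER. Cyp2b10 was at 85.9 ± 2.16 in wild type PPT livers, against 1387 ± 19.2 in wild type oil livers (adjusted p = 1.77e-09). It changed by -0.61 ± 0.092 in MOER (adjusted p = 0.00268) and -0.67 ± 0.092 in ERKO (adjusted p = 9.84e-04). Cyp17a1, the steroid 17-hydroxylase and lyase, rose in MOER by 3.42 ± 0.095 (adjusted p = 5.01e-09) and in wild type by 2.66 ± 0.095 (adjusted p = 1.35e-08), with -0.48 ± 0.095 in ERKO (adjusted p = 0.00712). The MOER rise began from a lower level, 219 ± 4.6 in MOER oil livers, and reached 2501 ± 72.2 in MOER PPT livers. Wild type livers gave 1590 ± 3.41 with oil and 10120 ± 585 with PPT. The oestrogen sulfotransferase gene Sult1e1 rose in MOER by 3.16 ± 0.12 (adjusted p = 1.05e-07) and in wild type by 0.82 ± 0.12 (adjusted p = 4.29e-04). It was not called in ERKO. The shares of all tested genes called in each direction, given above, are the background to these counts.

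**Figure D4:**
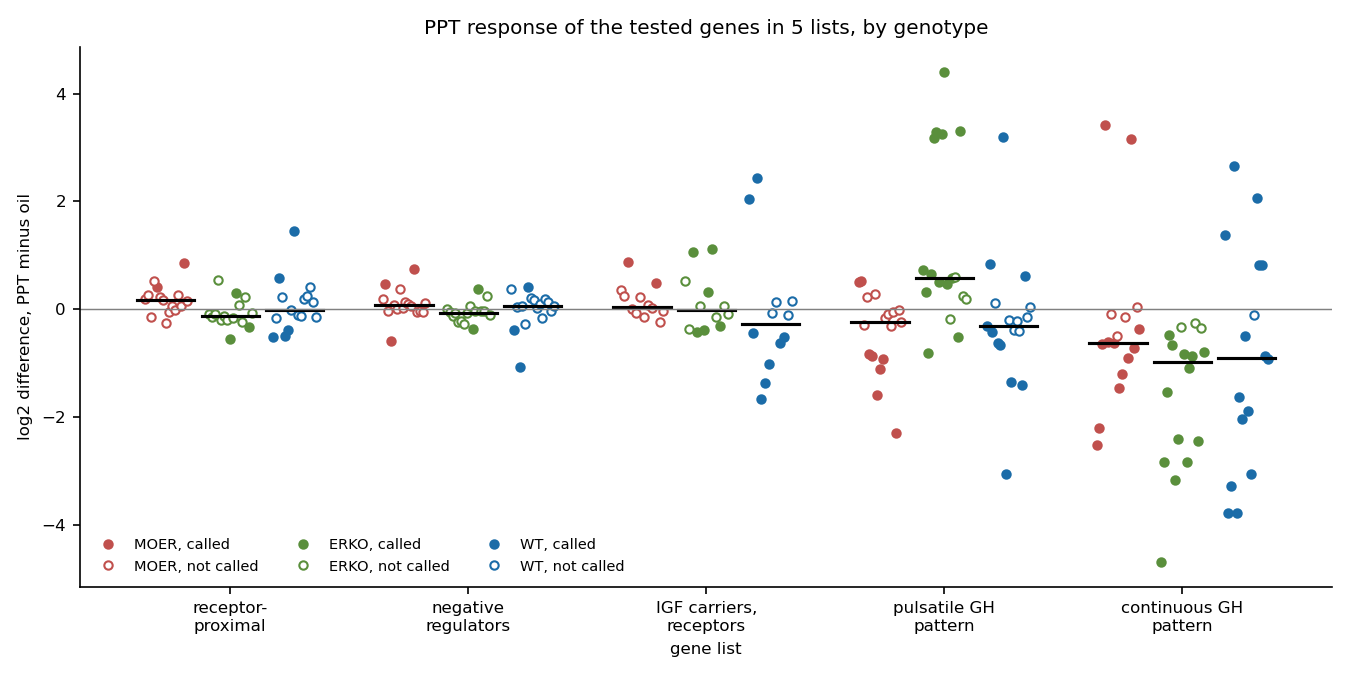
PPT minus oil log2 difference of each tested gene in 5 lists, for MOER, ERKO and wild type from left to right in each list, filled where called, with a bar at the list's median. The medians of the pulsatile pattern are 0.58 in ERKO, against -0.23 in MOER and -0.31 in wild type.

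For each of the 9 genes the 3 other tested genes with the highest Pearson r over the 12 arrays were found, as a description with no test. The arrays share 6 groups of 2. Stat5a was followed by Creb3l4 (0.989), Ptgds (0.988) and Lrp5 (0.987), and Stat5b by Klhdc3 (0.964), Atp7b (0.961) and 9530068E07Rik (0.957). For Socs2 they were Trmt10c (0.972), Mir19a (0.972) and Mir15a (0.967), and for Cish Inmt (0.966), Ephx1 (0.956) and Slain2 (0.95). Bcl6 was matched by Cd24a (0.944), Nrm (0.906) and Acer2 (0.901), and Cux2 by Olfr675 (0.934), Spef1l (0.927) and Gm10244 (0.922). Igf1 was followed by Rdh11 (0.99), Ugt2b34 (0.985) and Cyp2c29 (0.974), and Igfals by Bphl (0.989), Iah1 (0.989) and Slc6a6 (0.978). The nearest to Ghr were 9130409I23Rik (0.932), Zfp948 (0.916) and Cd163 (0.914).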

How the data were processed

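Liver RNA of 12 samples was measured on 1-colour arrays. The authors deposited 1 linear intensity per probe set and array, 28815 probe sets in all, and of 345780 values 389 were 0. The labels name neither the summarisation nor the normalization, and since the array medians lie close together the intensities were not normalised again. The highest value was 1602759 on MOER oil replicate 1 and 1219897 on MOER oil replicate 2. These were the only 2 values above the scanner limit of 65535. On the other arrays the highest value was 19752 to 51281. The source of this difference was not tested. Per the labels' protocols the authors used Cyber-T at a confidence equal to p = 1e-04 with a 2-fold minimum.

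Symbols came from the platform annotation (21780 probe sets with 1 symbol, 1605 with several, 5430 with none), and a gene was represented by its single-symbol probe set of highest mean. Probe sets that exceeded the array's 40th percentile on at least 2 arrays (19119) entered 1 limma fit (3.58.1, R 4.3.3) of 6 group means on log2(intensity + 16), with 9 contrasts, two-sided moderated tests and Benjamini-Hochberg adjustment over all 19119. The fit had 6 residual degrees of freedom, 10.47 after moderation. The code was tested on simulated data. A group was dim for a gene where both arrays lay under their 40th percentile; folds into or out of such a group use that percentile as a floor. Errors are standard errors for log2 differences and SD for intensities, and the number of arrays limits the precision. Named genes were the 10 members, the 3 genes most alike to each, and up to 2 called genes of smallest p per list and PPT response. Jak2 was named besides, as the kinase of the receptors. The members, lists and tests were chosen with earlier results of these data known. Alternatives were 2 other constants, 2 other filters, median centring, quantile normalization, a trended variance, the replicate block, only the compared groups, averaged probe sets, a Cyber-T style test and leaving out each array.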

Additional observations from a re-analysis of the deposited data

Results flagged for a closer look

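The response to PPT differed between genotypes, by a test of the difference itself, in 12 instances among 6 of the 9 genes (limma, log2 scale, Benjamini-Hochberg over all probe sets tested). For MOER minus ERKO these were Socs2 at -1.48 and Bcl6 at 0.83. For wild type minus MOER they were Socs2 at 2.21, Stat5a at 1.59, Cish at 1.10, Igfals at -0.66 and Bcl6 at -1.59. For wild type minus ERKO they were Stat5a at 1.85, Cish at 0.79, Socs2 at 0.74, Igf1 at -0.39 and Bcl6 at -0.76. Of all tested genes, 11.6%, 23.9% and 23.7% were called for these pairs in the same order. The share called in at least 1 pair was not computed. The Cish values, and those of Bcl6 that involve MOER, rest on groups that were dim, so their sign is measured and their size depends on the added constant. The Bcl6 value for wild type minus ERKO rests on no dim group, but its size also depends on the processing, from -0.87 to -0.55 over 10 alternatives. Comparisons with the same genotype share its 4 arrays. With 2 arrays a group, no group was large enough to look for an outlying array.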

How the results depend on the processing

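Over 10 alternatives and 12 fits leaving out 1 array, 1764 values of the 9 genes were recomputed: 1669 kept their direction and side of the threshold, 59 lost a call, 36 gained one and 0 called values reversed. The number of the 9 genes called in MOER after PPT, 3, became 5 with a constant of 64, 6 with quantile normalization and 5 with the trended variance; in ERKO, 3 became 1 with only the compared groups; for ERKO minus wild type under oil, 2 became 1 without the filter and 0 with only the compared groups; for MOER minus wild type under oil, 3 became 1 without the filter. The cause of these changes was not tested. By the Cyber-T style test at the labels' threshold the counts were 3 in MOER, 1 in ERKO and 2 in wild type after PPT, and 0 for each comparison under oil; over all genes it called 123, 207 and 938 after PPT, against 688, 2367 and 4631. It was not run on differences between responses. Leaving out 1 array gave 3 to 6 called genes in MOER, 1 to 4 in ERKO and 5 to 6 in wild type after PPT, 2 to 3 for MOER minus ERKO, 3 to 6 for wild type minus ERKO and 4 to 5 for wild type minus MOER, and under oil 0 to 5 for ERKO minus wild type, 0 to 5 for MOER minus wild type and 0 to 2 for MOER minus ERKO; a lone array is then assumed to vary like the other groups. At the 60th percentile Cish and Cux2 were not tested. Over all genes, leaving out 1 array moved the 688 calls in MOER to 331 to 1316, the 2367 in ERKO to 863 to 3807, the 4631 in wild type to 3199 to 5950, the 1625 for MOER minus ERKO to 815 to 3368, the 3310 for wild type minus ERKO to 2252 to 5036, and under oil the 732 for ERKO minus wild type to 162 to 4776, the 809 for MOER minus wild type to 173 to 2570 and the 302 for MOER minus ERKO to 83 to 1597. Over all settings the falling female-pattern genes numbered 4 to 11 in MOER, 8 to 15 in ERKO and 7 to 10 in wild type, and the rising male-pattern genes in ERKO 5 to 12. The labels do not pair the arrays by number: deviations of same-numbered arrays correlated at -0.15 to 0.38 between groups, and among the 3 oil groups at 0.28 to 0.38, a hint from the data and not the design. With the replicate block the counts after PPT stayed at 3, 3 and 5 in MOER, ERKO and wild type, those under oil at 3 for MOER minus wild type, 2 for ERKO minus wild type and 0 for MOER minus ERKO, that for wild type minus ERKO was 4, and 1 call of the 9 genes was lost, Igf1 for wild type minus ERKO (adjusted p = 0.0516).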
